A study of Ailuropoda melanoleuca with 25 samples.

Results

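A set of 52 gene models was far lower in BACL-CHIR99021 than in BACL control libraries of giant panda (Ailuropoda melanoleuca) cells, out of 22924 models in the assembly's annotation. The models were chosen by their CPM (estimated counts scaled to a common library total) in the BACL pair of groups: 10 or more in both BACL control libraries, with each BACL-CHIR99021 library at 0.25 or less of the lower BACL control library. Of the 8932 models with 10 or more CPM in both BACL control libraries, the 52 made up 0.582%. The same rule turned round took 477 models as strongly higher in BACL-CHIR99021.

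The libraries came from a study that made giant panda induced pluripotent stem cells (GPiPSC) from primary fibroblasts (PF) with episomal vectors, which do not integrate into the genome. The groups were BACL-CHIR99021, BACL control, BACL LB GPiPSC, LB GPiPSC, XR GPiPSC, LB PF, XR PF, reprogramming stage I at day 8 and day 24, stage II at day 8, and A83-01 and control at day 16. LB GPiPSC had 3 libraries and each of the other 11 groups had 2, or 25 in all. What LB, XR and BACL stand for is not in the labels, which name no vector genes and do not tie the stage, day 16, BACL-CHIR99021 and BACL control libraries to LB or to XR. They also do not say whether the hyphen in BACL-CHIR99021 means that CHIR99021 was added to the BACL condition or left out of it, so no direction of drug action is given here. The sample descriptions read K2-BCAL for BACL control, K2-CHIR for BACL-CHIR99021 and KmT-BCAL for BACL LB GPiPSC, and the labels do not say whether these are of the same line. Every library has primary fibroblast cells as its source in the labels, and nothing says that replicates came from separate cultures. The error behind each p-value is therefore that between libraries, and part or all of it may be technical. In the fit of all 25 libraries this error was pooled over all groups, whose replicates differed in spread. It can therefore differ from the error between the libraries of a single comparison.

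CHIR99021 is an inhibitor of glycogen synthase kinase 3 (GSK3). When GSK3 is blocked, beta-catenin is no longer marked for destruction and builds up, which turns on Wnt target genes, and the compound is a common part of media for pluripotent stem cells. A83-01 blocks the type I receptor kinases of the TGF-beta and activin branch and is used to favour the passage of fibroblasts to an epithelial state during reprogramming. Gene names are not paired with the model identifiers in these files, and 0 of the 22924 identifiers were found in a RefSeq gene table of the species. The 57 symbols of 5 lists on Wnt targets, pluripotency, fibroblasts and related functions could not be looked up for the same reason. The 52 are therefore described by identifier (with the prefix evm.model. left out), level and coding length, and the labelled cell types could not be checked against their marker genes.

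Library totals lay between 8627983 estimated counts (LB PF replicate 2) and 14890260 (XR PF replicate 2), so that 3 counts stood for 0.201 to 0.348 CPM. Replicates correlated with a Pearson r of 0.944 to 0.995 across models on the log2 CPM scale. LB GPiPSC replicate 3 was unlike the rest of its group, with an r of 0.981 to both XR GPiPSC libraries but of 0.962 to the other two LB GPiPSC libraries. The number of models called in each comparison that uses it is also given without it. Most other counts include it, among them the models called in both LB and XR and those on places relative to GPiPSC libraries. Groups with BACL in their name held the closest replicates, whose chi-square divided by its degrees of freedom was 1.52 in BACL-CHIR99021, 1.58 in BACL control and 1.20 in BACL LB GPiPSC. It was largest in XR PF at 112, LB PF at 110 and stage I day 24 at 108. Levels are plain CPM in the account of the BACL pair that comes next, and elsewhere, unless called plain, CPM after TMM scaling, which corrects library totals for their make-up.

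The values of the BACL pair chose the 52 models, so they are a description with no test. By group means, the models were 4.17-fold to 110-fold lower in BACL-CHIR99021, with a median of 5.63-fold. Of the 52, 33 were over 5-fold lower and 16 over 10-fold lower. Their mean CPM ran from 0.621 to 499 in BACL-CHIR99021 (median 5.41), and from 11.2 to 2111 in BACL control (median 46.2). They took 0.109% of all counts in each BACL-CHIR99021 library, and 0.579% and 0.566% in the BACL control libraries. No model reached zero: the lowest estimate in a BACL-CHIR99021 library was 6 counts. In bulk RNA, fewer cells with a transcript and less of it per cell cannot be told apart. Replicates mostly lay close together, with a median ratio of the higher to the lower library of 1.12 in BACL-CHIR99021 and 1.06 in BACL control. The largest ratio was 2.07 in BACL-CHIR99021 and 1.31 in BACL control. The rule sets the higher BACL-CHIR99021 library against the lower BACL control library, which favours models with close replicates.

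The 2 largest falls were those of HIC_ASM_2.1266 and HIC_ASM_3.1518. HIC_ASM_2.1266 had 0.488 and 0.755 CPM in BACL-CHIR99021, against 64.8 and 72.1 CPM in BACL control, or 110-fold less by the means. HIC_ASM_3.1518 had 0.976 and 1.28 CPM in BACL-CHIR99021, against 70.8 and 65.6 CPM in BACL control, or 60.4-fold less. Both models were thus at or under 1.28 CPM in BACL-CHIR99021 and well expressed in BACL control. The most abundant was HIC_ASM_15.812, with 496 and 501 CPM in BACL-CHIR99021, against 2178 and 2043 CPM in BACL control. Per length it also led the set, at a mean of 314 TPM (a level scaled to both library total and model length) in BACL-CHIR99021 and 1230 TPM in BACL control. Its neighbour HIC_ASM_15.813 had 110 and 107 CPM in BACL-CHIR99021, against 498 and 453 CPM in BACL control. HIC_ASM_15.812 was the model nearest to the limit from inside, with its higher BACL-CHIR99021 library at 0.245 of the lower BACL control library. The model nearest from outside stood at 0.256, with 54.0 and 60.6 CPM in BACL-CHIR99021, against 280 and 237 CPM in BACL control. At the limit on level, the lowest member had 1.14 and 1.21 CPM in BACL-CHIR99021, against 11.3 and 11.1 CPM in BACL control. The nearest model outside that limit had 1.14 and 1.21 CPM in BACL-CHIR99021, against 11.5 and 9.81 CPM in BACL control.

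**Figure D1:**
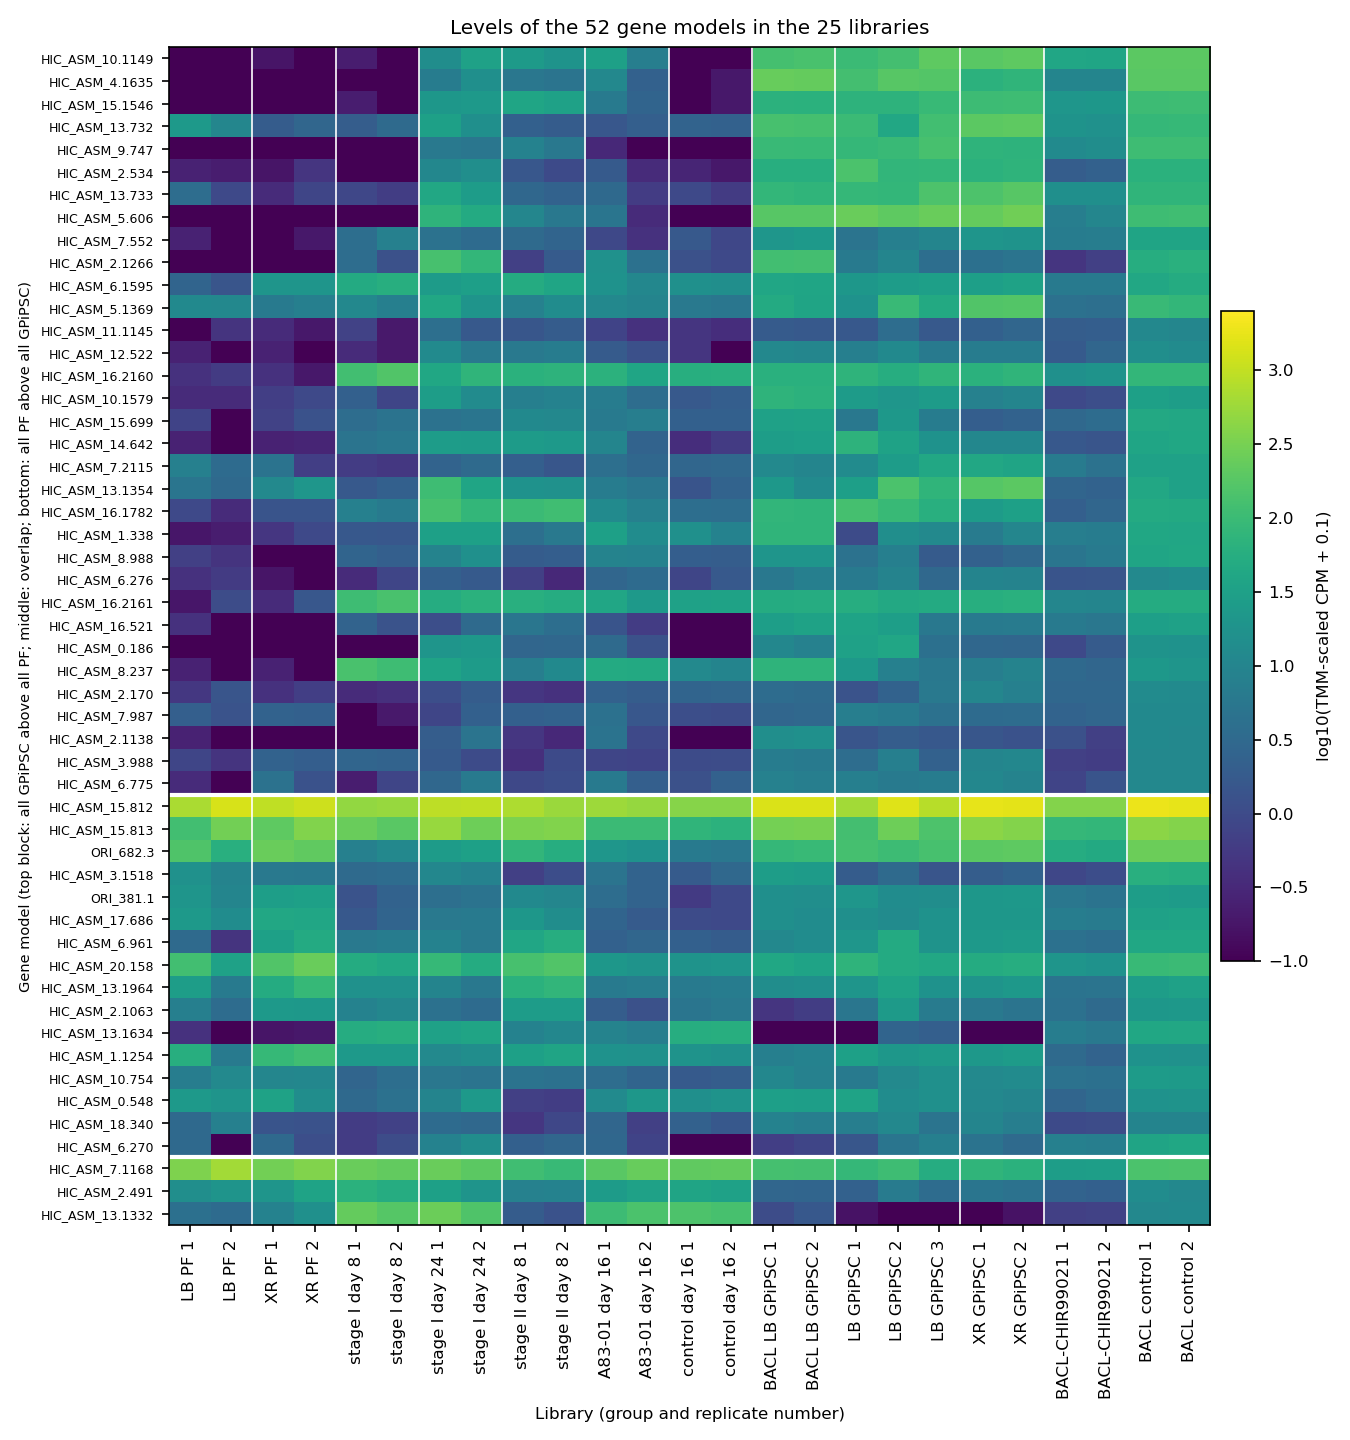
Levels of the 52 models (rows) in the 25 libraries (columns), as log10 of TMM-scaled CPM plus 0.1. White lines part the groups and 3 blocks of rows, by whether the 5 GPiPSC libraries lie above the 4 PF libraries (33 models), overlap with them (16) or lie below them (3), and the BACL-CHIR99021 columns are darker than the BACL control columns in every row, as the rule requires.

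Outside the BACL pair, the 52 models were mostly higher in established GPiPSC than in fibroblasts. The median over the 52 was 28.1 and 27.4 CPM in the BACL LB GPiPSC libraries, 20.2, 23.4 and 16.5 CPM in LB GPiPSC, and 15.1 and 15.7 CPM in XR GPiPSC. It was 0.779 and 0.485 CPM in LB PF, and 1.29 and 1.21 CPM in XR PF. All 7 GPiPSC libraries thus lay above all 4 PF libraries. In the course of reprogramming the median was 2.57 and 2.44 CPM at stage I day 8, 12.2 and 15.3 CPM at stage I day 24, and 7.73 and 6.39 CPM at stage II day 8. At day 16 it was 6.39 and 2.76 CPM with A83-01, against 1.85 and 2.08 CPM in control. BACL-CHIR99021, at 4.43 and 3.98 CPM, lay between the PF and the established GPiPSC libraries, and BACL control was the highest group at 38.5 and 40.6 CPM. Both of these groups hold the libraries that chose the models.

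**Figure D2:**
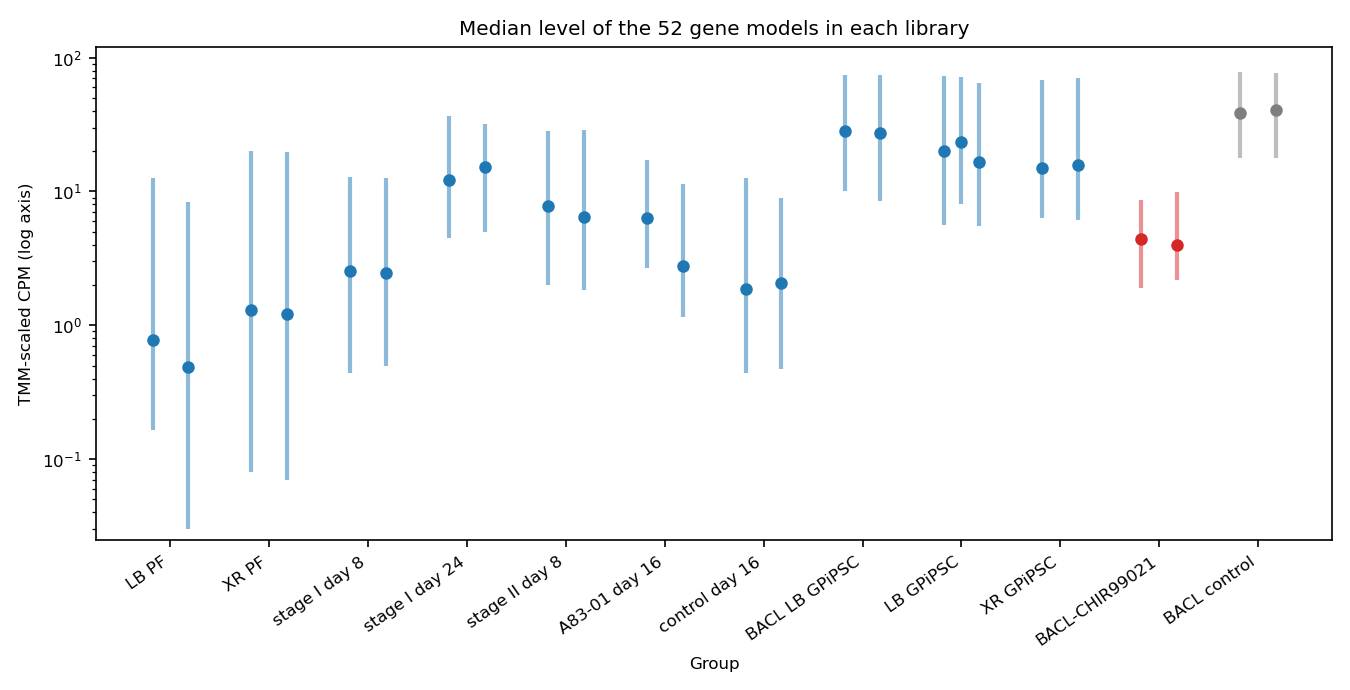
Median level of the 52 models in each library (points, TMM-scaled CPM on a log axis) with the lower to upper quartile (bars), by group. The lower quartile of LB PF replicate 2 is 0 and its bar is cut at the foot of the plot; the GPiPSC libraries lie between 15.1 and 28.1 CPM and the PF libraries between 0.485 and 1.29 CPM.

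The number of models with almost no signal followed the same course. A group mean under 1 CPM was found for 27 of the 52 in LB PF and 25 in XR PF, for 18 at stage I day 8, 0 at stage I day 24 and 8 at stage II day 8. It was found for 6 with A83-01, against 19 in control at day 16. It was found for 3 in BACL LB GPiPSC, 1 in LB GPiPSC and 2 in XR GPiPSC. In BACL-CHIR99021 8 models were under 1 CPM, and none were in BACL control. Among the 10 groups that did not enter the rule, XR GPiPSC held the highest mean for 16 models and BACL LB GPiPSC for 12.

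The 2 lines of comparison between GPiPSC and PF share no libraries, and both gave more rises than falls. With edgeR's quasi-likelihood test and an adjusted p under 0.05 over all 17225 models tested, 35 of the 52 rose in LB GPiPSC over LB PF and 4 fell. Over all models tested 28.5% rose, 28.9% fell and 57.4% did either, and of the 8932 models at 10 or more CPM in BACL control 33.5% rose and 22.7% fell. In XR GPiPSC over XR PF, 32 of the 52 rose and 10 fell, where 27.0% of all models tested rose, 28.9% fell and 55.9% did either. Of the models at 10 or more CPM in BACL control, 28.8% rose and 24.4% fell in XR. The median log2 fold change of the 52 was 3.76 in LB and 3.72 in XR, and that of all models was 0.00 in both. For the models at 10 or more CPM in BACL control it was 0.18 in LB and 0.1 in XR. Of the 52, 31 rose in both lines, 4 fell in both, and 0 moved in opposite directions. Over all models tested 19.8% rose in both, 21.2% fell in both and 0.662% moved in opposite directions, and of those at 10 or more CPM in BACL control 22.2% rose in both and 16% fell in both. The log2 fold change differed between LB and XR for 11 of the 52 by a test of the difference (edgeR, adjusted p under 0.05), with a log2 fold change that was higher in LB for 8 and lower in LB for 3. Over all models tested 8.64% differed, 5.56% with the higher and 3.09% with the lower log2 fold change in LB, and among those at 10 or more CPM in BACL control the shares were 6.70% and 2.28%. The 11 became 2 with only the libraries compared, 4 to 6 without XR GPiPSC replicate 1 or 2, LB PF replicate 2 or XR PF replicate 2, and 12 without LB GPiPSC replicate 3. With only the libraries compared, 40 of 15996 models tested had a higher and 43 a lower log2 fold change in LB, so calls fell over all models too. Without LB GPiPSC replicate 3, 39 of the 52 were called in LB, as with it. All 52 passed the filter on low counts, which each did through BACL control.

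The examples below had 10 or more counts in the lower group, averaged 10 CPM or more in the higher group and showed no overlap between libraries. Models with fewer counts in the lower group, some of which changed more, are not sized this way. HIC_ASM_16.1782 had 125, 92.2 and 60.6 CPM in LB GPiPSC, against 0.820 and 0.242 CPM in LB PF. This was a log2 fold change of 7.31 ± 0.47 (SE, edgeR adjusted p = 2.25e-10), or 8.53 without LB PF replicate 1. HIC_ASM_13.733 had 84.4, 82.4 and 150 CPM in LB GPiPSC, against 3.61 and 0.849 CPM in LB PF. The spread within LB PF carried into its log2 fold change, which was 5.49 ± 0.59 (SE, edgeR adjusted p = 2.32e-07), 6.95 without LB PF replicate 1 and 4.87 without replicate 2. In XR the same model had 151 and 183 CPM in GPiPSC, against 0.242 and 0.743 CPM in PF, with a log2 fold change of 8.42 ± 0.73 (SE, edgeR adjusted p = 1.64e-08), 7.79 without XR PF replicate 1 and 9.37 without replicate 2. The model beside it on the scaffold, HIC_ASM_13.732, was the other example that rose in XR. It had 199 and 205 CPM in XR GPiPSC, against 1.78 and 2.79 CPM in XR PF (log2 fold change 6.47 ± 0.53 SE, edgeR adjusted p = 8.57e-09). In LB its PF libraries were higher, with 101, 42.9 and 117 CPM in GPiPSC, against 22.6 and 10.3 CPM in PF.

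Falls in GPiPSC were fewer. The deepest was that of HIC_ASM_13.1332, at 0.0648, 0 and 0 CPM in LB GPiPSC, against 4.10 and 3.39 CPM in LB PF, and 0 and 0.0614 CPM in XR GPiPSC, against 8.81 and 16.3 CPM in XR PF. It was called lower in LB and in XR (edgeR adjusted p = 2.99e-08 and 5.34e-09), with no fold given because the GPiPSC libraries were under the floor of 3 counts. HIC_ASM_7.1168 also fell in both lines. It had 84.5, 108 and 52.5 CPM in LB GPiPSC, against 351 and 625 CPM in LB PF, and 75.7 and 64.7 CPM in XR GPiPSC, against 292 and 362 CPM in XR PF. Its log2 fold changes were -2.58 ± 0.26 (SE, edgeR adjusted p = 1.11e-07) in LB and -2.22 ± 0.30 (edgeR adjusted p = 4.77e-06) in XR. HIC_ASM_3.1518, the model with the second largest fall in the BACL pair, was low in LB GPiPSC too, at 1.81, 3.18 and 1.35 CPM, against 16.4 and 9.09 CPM in LB PF (log2 fold change -2.59 ± 0.36 SE, edgeR adjusted p = 5.36e-06). HIC_ASM_2.491 had 4.96 and 4.54 CPM in XR GPiPSC, against 19.9 and 34.9 CPM in XR PF (log2 fold change -2.52 ± 0.40 SE, edgeR adjusted p = 2.67e-05).

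By plain CPM, 33 of the 52 models had all 5 LB and XR GPiPSC libraries above all 4 PF libraries, where 35.4% of all models tested and 44.3% of those at 10 or more CPM in BACL control did. In 3 models (HIC_ASM_7.1168, HIC_ASM_2.491 and HIC_ASM_13.1332) all PF libraries were above all GPiPSC libraries, where 14.9% of all models tested and 8.90% of those at 10 or more CPM in BACL control were. The count of 3 is 5 without LB PF replicate 2. The libraries overlapped in the remaining 16. These 16 had a median of group means of 18.7 CPM in LB GPiPSC, against 15.8 CPM in LB PF, and 20.9 CPM in XR GPiPSC, against 35.2 CPM in XR PF. They included HIC_ASM_15.812 and HIC_ASM_15.813. HIC_ASM_15.812 averaged 1002 ± 473 CPM (SD, n = 3) in LB GPiPSC and 1021 ± 471 CPM (SD, n = 2) in LB PF, and 1704 ± 41.7 CPM in XR GPiPSC and 1057 ± 127 CPM in XR PF (SD, n = 2 each).

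Part of the set was very low or not detected in fibroblasts at this depth. Of the 52, 21 (40.4%) had under 1 CPM in all 4 PF libraries, where 2.23% of the models at 10 or more CPM in BACL control did, and 20 of these 21 were among the 33 above. In 13 models no PF library had more than 3 counts, and 6 had 0 counts in all 4. The floor for such a zero is 3 counts, or at most 0.348 CPM in the smallest PF library. The most abundant of the 6, chosen after its values were seen, was HIC_ASM_5.606, with 251, 205 and 245 CPM in LB GPiPSC and 226 and 275 CPM in XR GPiPSC. By plain CPM its GPiPSC mean was at least 890-fold higher than the floor, and the other 5 models with 0 counts in PF were at least 21-fold to 456-fold higher. HIC_ASM_5.606 also had 0 counts at stage I day 8 and in control day 16, 72.7 and 48.2 CPM at stage I day 24, and 10.4 and 5.74 CPM at stage II day 8. In the BACL pair it had 7.40 and 10.2 CPM in BACL-CHIR99021, against 106 and 111 CPM in BACL control, so neither condition matched the established GPiPSC level.

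**Figure D3:**
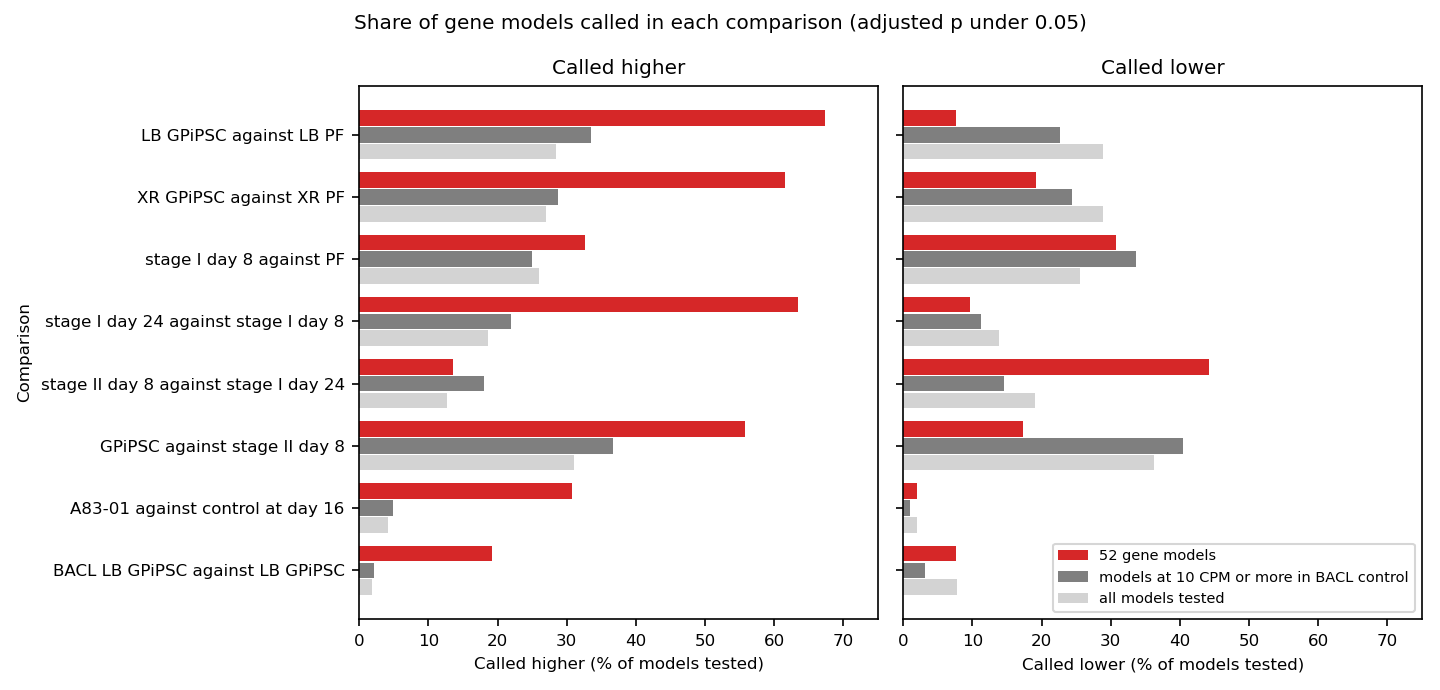
Share of models called higher (left) and lower (right) by edgeR at an adjusted p under 0.05 in 8 comparisons, for the 52 models, for the 8932 models at 10 or more CPM in BACL control and for all 17225 models tested. Among rises the share of the 52 is above that of both other sets in each comparison but stage II day 8 against stage I day 24, and among falls it is above both in that comparison only, at 44.2%.

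The established GPiPSC libraries place the BACL pair on a scale, though these counts again use libraries that chose the models. The rule itself favours low places for BACL-CHIR99021 and high places for BACL control. The shares of other models are thus given for scale and are no test. Both BACL-CHIR99021 libraries lay below all 5 LB and XR GPiPSC libraries in 41 of the 52 models and above all 5 in 2. Over all models tested, 20.5% lay below, and among those at 10 or more CPM in BACL control 24.4% did. Both BACL control libraries lay above all 5 in 28 models, where 21.7% of all models tested and 34.4% of those at 10 or more CPM in BACL control did, and below all 5 in 4 models. For the 2 models with BACL-CHIR99021 above and the 4 with BACL control below, the shares of other models were not counted, so nothing is read from them.

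Early reprogramming split the set. From PF to stage I day 8, 17 of the 52 rose and 16 fell (edgeR, adjusted p under 0.05), where 26.0% of all models tested rose, 25.6% fell and 51.6% did either. Among the models at 10 or more CPM in BACL control, 24.9% rose and 33.6% fell. For the 52 as for all models, the median log2 fold change was 0.00, and for those at 10 or more CPM in BACL control it was -0.14. On the log2(TPM + 1) scale with limma, which moved the median of all models to -0.29, 12 rose and 17 fell. On that scale 2512 of the 17225 models tested rose and 6195 fell. The members' shares were thus near those of the other models at this first step.

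Among models that met the conditions for examples, the largest rises by day 8 were in a pair of adjacent models. HIC_ASM_16.2160 had 116 and 163 CPM at stage I day 8, against 0.328 and 0.485 CPM in LB PF and 0.323 and 0.0929 CPM in XR PF (log2 fold change 8.85 ± 0.35 SE, edgeR adjusted p = 3.32e-12). HIC_ASM_16.2161 had 107 and 135 CPM at stage I day 8, against 0.0820 and 0.970 CPM in LB PF and 0.242 and 1.49 CPM in XR PF. This gave a log2 fold change of 7.58 ± 0.43 (SE, edgeR adjusted p = 1.98e-10), or 8.75 and 8.45 without LB PF or XR PF replicate 2. Both models stayed on in every later group, with HIC_ASM_16.2160 between 38.1 and 74.7 CPM in each library of the stage I day 24, stage II, day 16 and GPiPSC groups. In BACL-CHIR99021 it had 16.1 and 18.4 CPM, against 82.7 and 82.7 CPM in BACL control. The falls used as examples at day 8 were in models that share reads with other models, so their values are uncertain. ORI_682.3_evm.model.ORI_682.4, a fused entry that keeps both names, had 8.14 and 11.4 CPM at stage I day 8, against 156 and 59.8 CPM in LB PF and 244 and 213 CPM in XR PF (log2 fold change -4.00 ± 0.34 SE, edgeR adjusted p = 4.05e-08). HIC_ASM_17.686 had 1.50 and 2.49 CPM at stage I day 8, against 23.0 and 13.8 CPM in LB PF and 43.9 and 40.3 CPM in XR PF (log2 fold change -3.78 ± 0.32 SE, edgeR adjusted p = 3.94e-08). Both were back at over 10 CPM in the GPiPSC libraries.

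**Figure D4:**
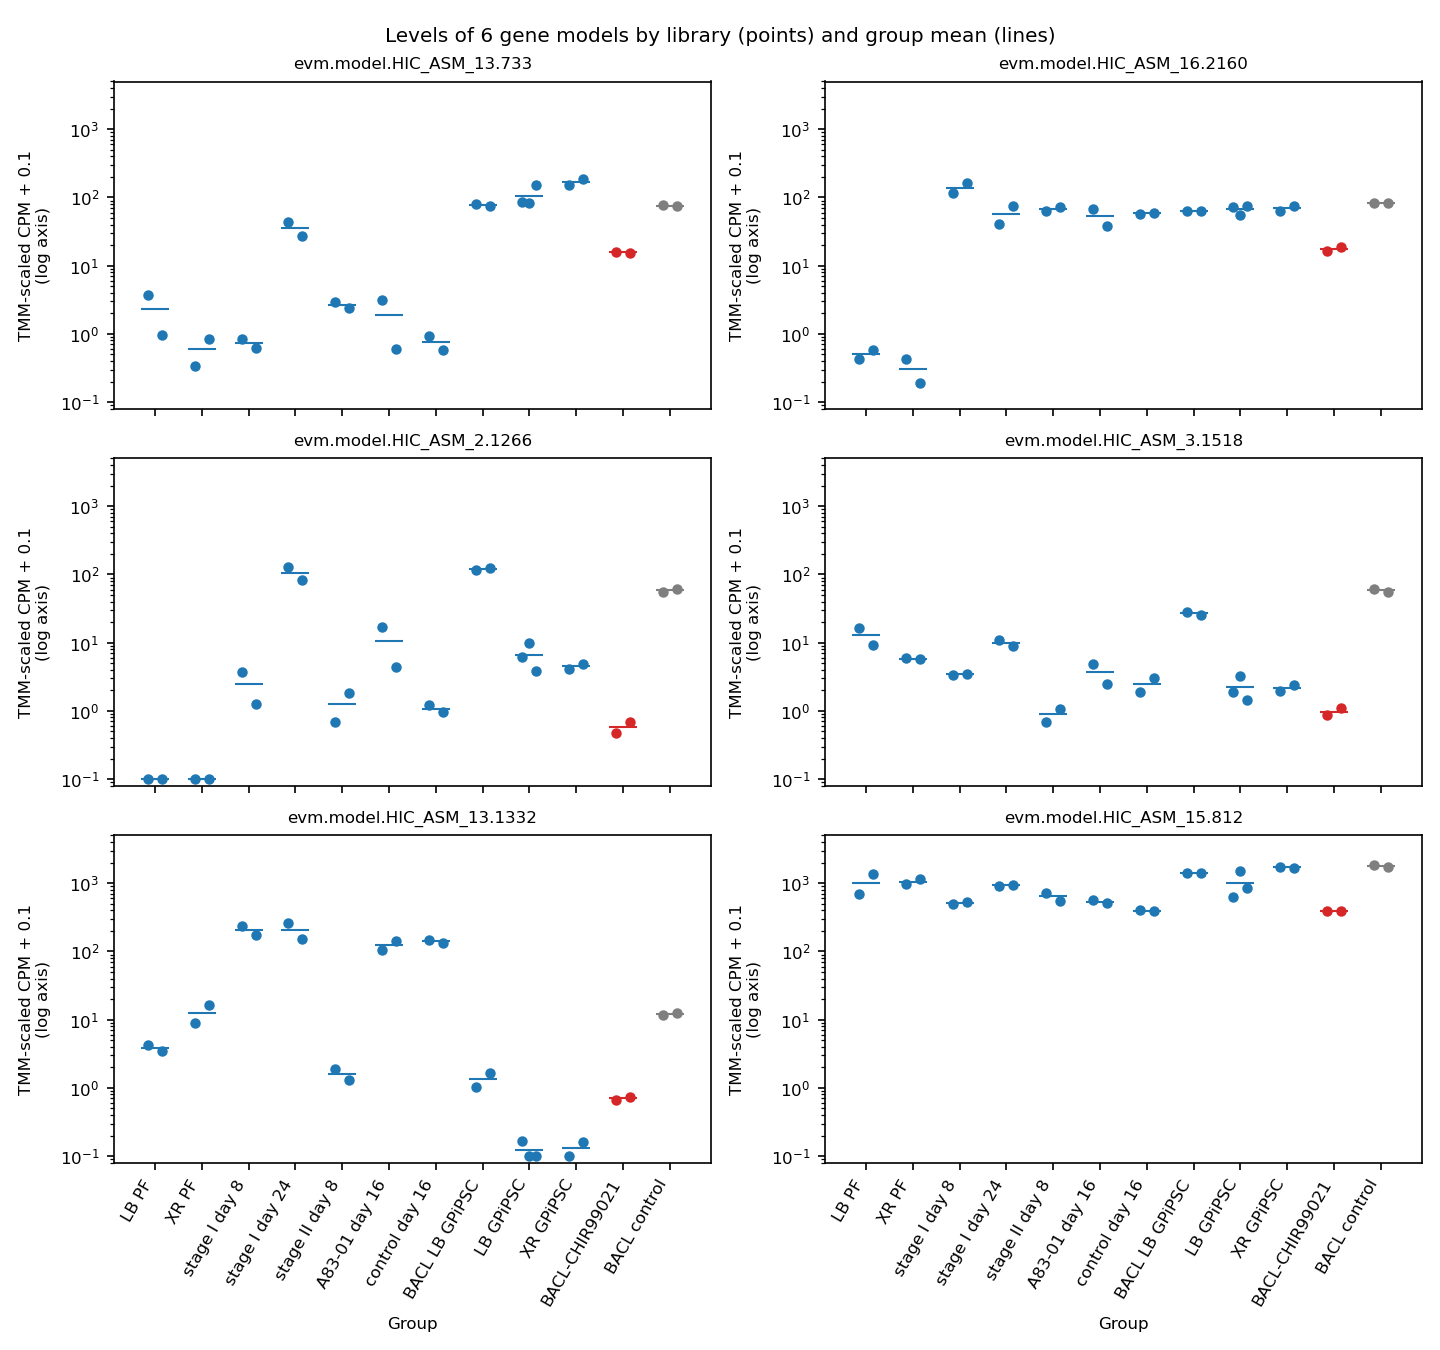
TMM-scaled CPM plus 0.1 (log axis) of 6 models in each library (points) with group means (lines), BACL-CHIR99021 in red and BACL control in grey. The panels show a model that came on at stage I day 24 and again in GPiPSC (HIC_ASM_13.733), one on from stage I day 8 (HIC_ASM_16.2160), the 2 with the largest falls in BACL-CHIR99021 (HIC_ASM_2.1266 and HIC_ASM_3.1518), one highest in stage I and at day 16 (HIC_ASM_13.1332) and the most abundant (HIC_ASM_15.812).

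Between day 8 and day 24 of stage I the set turned mostly upward. At day 24, 33 of the 52 rose over day 8 and 5 fell (edgeR, adjusted p under 0.05), where 18.6% of all models tested rose, 13.9% fell and 32.5% did either. Among the models at 10 or more CPM in BACL control, 21.9% rose and 11.3% fell. Over the 52 the median log2 fold change was 2.00, against 0.15 over all models and 0.22 over those at 10 or more CPM in BACL control. With only these 4 libraries in the fit, 24 of the 52 were called in place of 38, and 23 of these rose. In that fit 1357 of 14787 models tested rose and 1093 fell. HIC_ASM_13.733 had 43.6 and 27.5 CPM at day 24, against 0.751 and 0.519 CPM at day 8 (log2 fold change 5.80 ± 0.69 SE, edgeR adjusted p = 3.52e-06). HIC_ASM_2.1266 had 130 and 82.0 CPM at day 24, against 3.63 and 1.14 CPM at day 8. Its log2 fold change was 5.50 ± 0.67 (SE, edgeR adjusted p = 7.82e-06), 6.53 without day 8 replicate 1 and 4.87 without replicate 2. HIC_ASM_8.237 went against the set, with 35.4 and 25.8 CPM at day 24, against 138 and 107 CPM at day 8 (log2 fold change -2.0 ± 0.45 SE, edgeR adjusted p = 0.00213). HIC_ASM_2.491 had 31.9 and 19.2 CPM at day 24, against 63.3 and 53.5 CPM at day 8 (log2 fold change -1.19 ± 0.37 SE, edgeR adjusted p = 0.0188). That call was lost without day 8 replicate 1 (edgeR adjusted p = 0.103), without day 24 replicate 2 (edgeR adjusted p = 0.111) and with only the libraries compared (edgeR adjusted p = 0.0763).

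Stage II day 8 lay below stage I day 24 for many of the models. At stage II day 8, 23 of the 52 fell below stage I day 24 and 7 rose (edgeR, adjusted p under 0.05), where 19.0% of all models tested fell, 12.7% rose and 31.7% did either. Among the models at 10 or more CPM in BACL control, 14.5% fell and 18.1% rose. Across the 52, log2 fold changes had a median of -0.91, against -0.15 for all models and 0.1 for those at 10 or more CPM in BACL control. The 30 calls became 18 without stage II replicate 1 and 16 without stage II replicate 2, and on the log2(TPM + 1) scale 20 fell and 3 rose. On that scale, in limma, 2468 of the 17225 models tested fell and 1244 rose. The largest fall was that of HIC_ASM_13.1332, with 1.78 and 1.19 CPM at stage II day 8, against 258 and 153 CPM at stage I day 24 (log2 fold change -7.09 ± 0.45 SE, edgeR adjusted p = 7.3e-09). HIC_ASM_2.1266 had 0.594 and 1.73 CPM at stage II day 8, against 130 and 82.0 CPM at stage I day 24. Its log2 fold change was -6.52 ± 0.71 (SE, edgeR adjusted p = 8.32e-06), -5.92 without stage II replicate 1 and -7.45 without replicate 2. Both models were thus under 2 CPM in each stage II library. Rises were led by HIC_ASM_13.1964, with 64.3 and 79.8 CPM at stage II day 8, against 9.38 and 5.59 CPM at stage I day 24 (log2 fold change 3.28 ± 0.51 SE, edgeR adjusted p = 0.000152). HIC_ASM_2.1063 had 27.2 and 27.4 CPM at stage II day 8, against 4.32 and 3.37 CPM at stage I day 24 (log2 fold change 2.83 ± 0.56 SE, edgeR adjusted p = 0.00112).

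From stage II to the established lines the set rose again. In LB and XR GPiPSC together, 29 of the 52 rose over stage II day 8 and 9 fell (edgeR, adjusted p under 0.05), where 31.0% of all models tested rose, 36.3% fell and 67.3% did either. Among the models at 10 or more CPM in BACL control, 36.7% rose and 40.4% fell. The median log2 fold change of the 52 was 1.03, against -0.08 for all models and -0.1 for those at 10 or more CPM in BACL control. Without LB GPiPSC replicate 3, 39 of the 52 were called in place of 38. On the log2(TPM + 1) scale with limma, where the median of all models was 0.55, 37 rose and 1 fell. On that scale 8606 of the 17225 models tested rose and 2644 fell. RLE size factors in edgeR left 29 rises and 9 falls among the 52, with 5571 rises and 6021 falls over all models tested. Unit, pseudocount and test changed together in the first of these alternatives, so the cause was not tested. HIC_ASM_2.534 had 140, 79.2 and 82.1 CPM in LB GPiPSC and 67.8 and 71.4 CPM in XR GPiPSC, against 1.49 and 0.867 CPM at stage II day 8 (log2 fold change 6.13 ± 0.51 SE, edgeR adjusted p = 3.21e-08). HIC_ASM_13.732, with GPiPSC values given above, had 2.18 and 1.84 CPM at stage II day 8 (log2 fold change 6.03 ± 0.51 SE, edgeR adjusted p = 1.94e-08). The falls used as examples were of models well expressed at stage II, while HIC_ASM_13.1634, HIC_ASM_13.1332 and HIC_ASM_2.1063, which do not meet the conditions for examples, had larger ones (edgeR adjusted p = 7.74e-06, 1.23e-06 and 0.000903). HIC_ASM_13.1964 had 19.9, 35.6 and 17.1 CPM in LB GPiPSC and 18.7 and 22.5 CPM in XR GPiPSC, against 64.3 and 79.8 CPM at stage II day 8 (log2 fold change -1.69 ± 0.37 SE, edgeR adjusted p = 0.00052). HIC_ASM_20.158 had 73.0, 49.5 and 44.1 CPM in LB GPiPSC and 50.5 and 55.7 CPM in XR GPiPSC, against 131 and 159 CPM at stage II day 8 (log2 fold change -1.42 ± 0.32 SE, edgeR adjusted p = 0.000735). Neither of these falls passed with limma on the log2(TPM + 1) scale, at an adjusted p of 0.165 for HIC_ASM_13.1964 and 0.335 for HIC_ASM_20.158. The stage steps share libraries, so they are not independent of each other.

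The set leaned upward with A83-01 at day 16. Of the 52, 16 were called higher with A83-01 and 1 lower (edgeR, adjusted p under 0.05), where 4.19% of all models tested were higher, 2.04% lower and 6.22% either. Among the models at 10 or more CPM in BACL control, 4.87% were higher and 0.996% lower. The median log2 fold change of the 52 was 1.08, and 0.42 without A83-01 replicate 1. With all libraries it was 0.04 for all models and 0.07 for those at 10 or more CPM in BACL control. The A83-01 libraries differed: 43 of the 52 models were higher in replicate 1 than in replicate 2, against 51.3% of all models tested. All 16 models called higher were among the 43, with a median ratio of replicate 1 to replicate 2 of 2.74. The 17 calls became 4 without A83-01 replicate 1, and 6 without either control replicate. Both A83-01 libraries lay above both control libraries in 28 of the 52 models, where 30.4% of all models tested and 34.6% of those at 10 or more CPM in BACL control did, and below both in 5, where 25.8% of all models tested did. Of the 16 called higher, 12 were under 1 CPM in all PF libraries, against 21 of the 52 as a whole. In 7 of the 16, each control library had 3 counts or fewer. These shares were not counted over all models called higher, so nothing is read from them.

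The libraries of the models named next did not overlap between A83-01 and control, yet no call survived the loss of a control library. HIC_ASM_2.1266 had 16.9 and 4.29 CPM with A83-01, against 1.11 and 0.850 CPM in control. Its log2 fold change was 3.42 ± 0.67 (SE, edgeR adjusted p = 0.00459), 4.09 without A83-01 replicate 2 and 2.08 without A83-01 replicate 1, when the call was lost (edgeR adjusted p = 0.129). It was also lost without control replicate 1 or 2 (edgeR adjusted p = 0.0588 and 0.09). HIC_ASM_8.237 was even between the A83-01 libraries, with 48.0 and 47.6 CPM, against 11.8 and 9.63 CPM in control (log2 fold change 2.16 ± 0.46 SE, edgeR adjusted p = 0.00724). Its adjusted p in edgeR was 0.0531 without A83-01 replicate 1, and 0.0704 and 0.128 without control replicate 1 or 2. HIC_ASM_13.1634 was the model called lower, with 9.20 and 7.42 CPM with A83-01, against 54.5 and 58.1 CPM in control (log2 fold change -2.76 ± 0.66 SE, edgeR adjusted p = 0.0169). Here the edgeR adjusted p was 0.081 to 0.135 with any 1 of the 4 libraries left out.

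BACL LB GPiPSC, set against LB GPiPSC, uses neither of the libraries of the BACL pair. Of the 52 models, 10 were called higher in BACL LB GPiPSC and 4 lower (edgeR, adjusted p under 0.05), where 1.79% of all models tested were higher, 7.70% lower and 9.50% either. Among the models at 10 or more CPM in BACL control, 2.09% were higher and 3.19% lower. The median log2 fold change of the 52 was -0.09, against -0.06 for all models and 0.06 for those at 10 or more CPM in BACL control. The calls thus came from the edges of the set and not from a shift of all of it. The 14 calls became 8 without BACL LB GPiPSC replicate 1, 9 without replicate 2, 9 with only these 5 libraries in the fit, and 13 without LB GPiPSC replicate 3. In the fit of only these 5 libraries, 617 of 14550 models tested were higher and 1073 lower. With limma on the log2(TPM + 1) scale, 9 of the 52 were higher and 2 lower. On that scale 238 of the 17225 models tested were higher and 1138 lower. Both BACL LB GPiPSC libraries lay above all 3 LB GPiPSC libraries in 15 of the 52, where 22.9% of all models tested and 33.8% of those at 10 or more CPM in BACL control did, and below all 3 in 14, where 25.9% of all models tested did.

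Both models that fell furthest in the BACL pair rose here, and were the examples with the largest rises. HIC_ASM_2.1266 had 117 and 122 CPM in BACL LB GPiPSC, against 6.16, 9.78 and 3.79 CPM in LB GPiPSC (log2 fold change 4.18 ± 0.51 SE, edgeR adjusted p = 6.87e-05). HIC_ASM_3.1518 had 27.7 and 25.7 CPM in BACL LB GPiPSC, against 1.81, 3.18 and 1.35 CPM in LB GPiPSC (log2 fold change 3.65 ± 0.36 SE, edgeR adjusted p = 5.06e-06). Both models were thus high in BACL LB GPiPSC and BACL control, and lower in BACL-CHIR99021, LB GPiPSC and XR GPiPSC. The lower groups were not alike for HIC_ASM_2.1266, which had 0.380 and 0.586 CPM in BACL-CHIR99021, against 4.06 and 4.79 CPM in XR GPiPSC. Outside the conditions for examples, HIC_ASM_13.1332 rose by more, with 0.935 and 1.55 CPM in BACL LB GPiPSC, against 0.0648, 0 and 0 CPM in LB GPiPSC (edgeR adjusted p = 0.000128), and HIC_ASM_13.1634 fell by more, with 0 and 0 CPM in BACL LB GPiPSC, against 0, 2.49 and 2.05 CPM in LB GPiPSC (edgeR adjusted p = 0.00943). These levels were low and overlapped in the second case. HIC_ASM_2.1063 had 0.374 and 0.537 CPM in BACL LB GPiPSC, against 5.25, 24.4 and 6.61 CPM in LB GPiPSC. Its log2 fold change was -4.71 ± 0.64 (SE, edgeR adjusted p = 0.000116), and -3.66 without LB GPiPSC replicate 2. In BACL control it had 21.3 and 21.9 CPM, so it was not low in every BACL group. HIC_ASM_13.1354 had 22.5 and 12.6 CPM in BACL LB GPiPSC, against 30, 143 and 76.3 CPM in LB GPiPSC (log2 fold change -2.24 ± 0.52 SE, edgeR adjusted p = 0.00947). Its log2 fold change was -1.57 without LB GPiPSC replicate 2, and its call was lost without BACL LB GPiPSC replicate 1 or 2 (edgeR adjusted p = 0.0521 and 0.187) and with only the libraries compared (edgeR adjusted p = 0.0734).

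In what the rule did not use, the set was varied. Coding length had a median of 1262 bases (423 to 8655), against 1362 bases for the models at 10 or more CPM in BACL control and 1017 for all models. The 52 lay on 22 scaffolds, among them 20 of the 21 named HIC_ASM. HIC_ASM_13 and HIC_ASM_2 held 6 models each, or 11.5% of the set, against 7.61% and 4.75% of the models at 10 or more CPM in BACL control. There were 3 pairs of neighbours in the order of the annotation, HIC_ASM_13.732 with HIC_ASM_13.733, HIC_ASM_15.812 with HIC_ASM_15.813, and HIC_ASM_16.2160 with HIC_ASM_16.2161. The coding lengths within these pairs were 705 and 729 bases, 1086 and 1347 bases, and 1542 and 3015 bases. Estimated counts were whole to within 0.01 in all 25 libraries for 44 of the 52 models, against 93.9% of the models at 10 or more CPM in BACL control. The other 8 had fractional counts in at least 1 library, which means that reads were shared out between similar models. In HIC_ASM_17.686, ORI_381.1 and ORI_682.3_evm.model.ORI_682.4 this was so in 23 or more of the 25 libraries.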

How the data were processed

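RNA was sequenced in 25 libraries, grouped by sample titles. Reads were assigned to models with kallisto, a pseudoaligner, per the submitters' processing notes, and its version and reference are not given here. Each deposited table lists 22924 models with a length, an estimated count and TPM, per the file headers. Of the lengths 91.6% are multiples of 3. The authors' deposited estimated counts were rounded to whole numbers for testing, and their deposited TPM (scaled to effective length and library total) served for alternatives and for levels per length.

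One model of all 25 libraries in 12 groups (13 residual degrees of freedom) was fitted in edgeR 4.0.16 under R 4.3.3. It used filterByExpr (17225 models left), TMM scaling and robust quasi-likelihood F tests, adjusted over all models tested by Benjamini-Hochberg. SEs come from the F statistic. In the comparisons of GPiPSC with stage II and of stage I day 8 with PF, the LB and XR groups were averaged. The step was tested on simulated counts.

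Examples are the 2 models per comparison and direction with the largest called fold change under the conditions given in the text. The members, lists and rules were chosen with earlier results of these data known. The 4 libraries of the BACL pair chose the members, so that pair was not tested. The fit was repeated with RLE size factors, with all models that had any count, with the compared libraries alone, with a replicate block and with each library left out (a group left with 1 library then borrows the spread of the others). Tests were repeated with DESeq2 1.42.0 and with limma 3.58.1 on log2(TPM + 1) and log2(TPM + 0.1), and the rule with other limits. Floors of 3 counts cover counting error only.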

Additional observations from a re-analysis of the deposited data

Results flagged for a closer look

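The change from PF to GPiPSC differed between LB and XR for 11 of the 52 models by a test of the difference itself (edgeR interaction contrast, adjusted p under 0.05), where 8.64% of all models tested did. The log2 fold change was higher in LB for 8 and lower in LB for 3. An unadjusted edgeR p under 0.05 was found for 17 of the 52, and for 4364 of the 17225 models tested. Of the models used as examples in the text, 5 were among the 11. The LB minus XR difference in log2 fold change was 2.83 ± 0.61 for HIC_ASM_16.1782 (SE, edgeR adjusted p = 0.00795), 4.04 without LB PF replicate 1 and 2.32 without LB PF replicate 2, and the call was lost with only the libraries compared (edgeR adjusted p = 0.121). For HIC_ASM_13.732 it was -4.08 ± 0.60 (SE, edgeR adjusted p = 0.000454) and -3.39 without LB PF replicate 1, and this call passed in each alternative tried. For its neighbour HIC_ASM_13.733 it was -2.92 ± 0.87 (SE, edgeR adjusted p = 0.0418). That call was lost in most settings, among them the fit without LB PF replicate 1, where the difference was -1.47 (edgeR adjusted p = 0.388), and it was -3.54 without LB PF replicate 2, -2.30 without XR PF replicate 1 and -3.89 without XR PF replicate 2. For HIC_ASM_13.1964 it was 2.23 ± 0.64 (SE, edgeR adjusted p = 0.036). It was 1.53 without LB PF replicate 2 (edgeR adjusted p = 0.0904) and 3.72 without LB PF replicate 1. This model was called lower in XR (log2 fold change -1.74, edgeR adjusted p = 0.00412) and was not called in LB (log2 fold change 0.48, edgeR adjusted p = 0.35). For HIC_ASM_2.1063 it was 3.18 ± 0.73 (SE, edgeR adjusted p = 0.0111), 2.74 without LB PF replicate 2 (edgeR adjusted p = 0.0533), 3.89 without LB PF replicate 1 and 2.13 without LB GPiPSC replicate 2. It too was called lower in XR (log2 fold change -2.10, edgeR adjusted p = 0.00248) and was not called in LB (log2 fold change 1.08, edgeR adjusted p = 0.0693).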

How the results depend on the processing

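The set itself depends on its rule: 32 models met it in TPM in place of CPM (29 of them among the 52), 88 at a ratio limit of 0.333 and 25 at a limit of 0.2 (0.25 in the rule), and 55 to 62 with 1 of the 4 libraries left out. With only the libraries compared in the fit, 24 of the 52 were called at stage I day 24 over day 8, 9 in BACL LB GPiPSC over LB GPiPSC and 2 for the difference between LB and XR. Over all models in those fits, 1357 of 14787 rose and 1093 fell at stage I day 24. In BACL LB GPiPSC 617 of 14550 were higher and 1073 lower. For the difference, 40 of 15996 had a higher and 43 a lower log2 fold change in LB. The cause was not tested. With single libraries left out, calls among the 52 ran from 38 to 43 in LB, 37 to 40 in XR, 22 to 31 at stage I day 8, 27 to 32 at stage I day 24, 16 to 29 at stage II, 27 to 39 in GPiPSC over stage II, 4 to 17 with A83-01, 8 to 16 in BACL LB GPiPSC and 4 to 16 for the difference between LB and XR. That difference had 4 and 5 calls without XR GPiPSC replicate 2 or 1, 5 without LB PF replicate 2 and 6 without XR PF replicate 2. Models with all GPiPSC libraries above PF numbered 33 to 35, and those with PF above GPiPSC 3 to 5. Of 449 alternative values for the 36 results on example models, 409 kept direction and call, 40 kept direction only and 0 reversed, and 25 of the 36 results kept both throughout.

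The labels do not say whether equal replicate numbers mark a pair or a batch. Replicate differences of the groups compared correlated between -0.545 (stage I day 8 with XR PF) and 0.558 (stage I day 24 with stage I day 8). A block on replicate number is shared by all groups, so pairing within a single comparison was not tested. With the replicate number as a block, 38 of the 52 were called in LB, 42 in XR, 33 at stage I day 8, 36 at stage I day 24, 30 at stage II, 39 in GPiPSC over stage II, 17 with A83-01, 13 in BACL LB GPiPSC and 10 for the difference between LB and XR.

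Limits: with 2 libraries in most groups and 3 counts at 0.201 to 0.348 CPM, changes between levels near this floor cannot be sized. Without gene names, no pathway was tested.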
